A study of Mus musculus with 10 samples.

Results

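Duox1, Prdx2 and Gsta4 are 3 genes of hydrogen peroxide and lipid peroxide metabolism. Each was read on the array by 1 probe that carries a RefSeq accession, A_51_P475138 (NM_001099297) for Duox1, A_51_P147207 (NM_011563) for Prdx2 and A_51_P112223 (NM_010357) for Gsta4. The members were taken by these accessions. They are 3 of 45 genes that could be named on the array, among 60706 mouse probes used. Each of these probes was printed in 10 spots on every array.

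RNA came from the testes of C57BL/6J male mice aged 3 months. Testosterone at 2.5 mg/kg body weight, or solvent alone (sesame oil with benzyl benzoate), was injected under the skin of the mothers every day, from day 14 to day 19 after coitus. The labels call every sample prenatally treated and also describe a later generation, without stating an F number for these testes. Each group held 5 samples called biological replicates, here control replicates 1 to 5 and testosterone replicates 1 to 5. Each sample had an array of its own, on which immunoprecipitated RNA (IP) was labelled with Cy5 and the RNA remaining in the supernatant (Sup) with Cy3. The antibody is not named in the labels. The mothers were the animals dosed, and dam and litter are not given, so tests that count each sample once do not cover litters that share a dam. A testis holds many cell types, and in such bulk RNA fewer cells of a type and less RNA per cell cannot be told apart.

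Duox1 encodes a dual oxidase, an NADPH oxidase that releases hydrogen peroxide and is best known from thyroid and airway epithelium. Prdx2 encodes a cytosolic peroxiredoxin that reduces hydrogen peroxide through reactive cysteines and is recycled by thioredoxin. Gsta4 encodes an alpha class glutathione S-transferase that couples glutathione to 4-hydroxynonenal, an aldehyde formed when membrane lipids are oxidised. Sperm membranes are rich in polyunsaturated lipids, and the male germ line is known to be sensitive to peroxides. In these data the Prdx2 and Gsta4 transcripts lay on the supernatant side on all 10 arrays, Duox1 lay modestly on the IP side, and none of the 3 genes differed between the groups by a test that passed.

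The arrays were not alike in brightness. The median processed signal of mouse probes ran from 372 to 389 in Sup and from 374 to 391 in IP in controls, and from 238 to 365 in Sup and from 235 to 367 in IP after testosterone. Testosterone replicates 4 and 5, the only arrays on the third slide and in the second scan, were lowest in both channels. The first slide held control replicates 1 to 4, and the second held control replicate 5 with testosterone replicates 1 to 3, so slide and scan overlap with the groups. Levels below are therefore log2 of the processed signal minus the 75th percentile of the same channel and array, so that a value of 0 is that percentile. They compare arrays for 1 probe, and the level of a probe says nothing against that of another probe.

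All 100 spots of each of the 3 probes (10 spots on 10 arrays) were well above background in both channels, and 0 were saturated. The margin differed. For Prdx2 the uncorrected spot was between 146 and 301 times its local background in Sup and between 23.4 and 54.2 times in IP. For Gsta4 it was between 24.1 and 45.9 times in Sup and between 3.59 and 9.84 times in IP. Duox1 had the smallest margin, between 4.49 and 5.50 times background in Sup and between 2.28 and 3.57 times in IP. The 15 negative control probes printed on the same arrays had an array median of 2.73 to 3.17 times background in Sup and 1.13 to 1.27 times in IP, so the Duox1 signal stood closest to unspecific signal. Of these 15 probes, 1 was itself well above background in IP on all 10 arrays, and 0 were in Sup. The flag alone therefore does not exclude unspecific signal.

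Duox1, the peroxide producer, had a mean processed Sup signal of 183 ± 21.2 (SD, n = 5) in the control group against 166 ± 13.0 (SD, n = 5) in the testosterone group. Its mean IP signal was 287 ± 25.5 (SD, n = 5) against 230 ± 18.4 (SD, n = 5). On the scaled log2 scale its Sup levels in control replicates 1 to 5 were -3.22, -3.40, -3.15, -3.24 and -2.89, and in testosterone replicates 1 to 5 they were -3.25, -3.26, -3.21, -2.61 and -2.72. Testosterone replicates 4 and 5 were the highest of all 10 arrays on this scale and the other 3 testosterone arrays lay inside the control range. Before scaling, the Duox1 Sup signals of replicates 4 and 5 were 179 and 164, inside the first scan's range of 145 to 215. The Sup 75th percentiles they were divided by, 1089 and 1087, were the lowest of all arrays. These high levels of Duox1 thus appear only after scaling. Its IP levels were -2.46, -2.50, -2.57, -2.79 and -2.38 in controls and -2.67, -2.72, -2.73, -2.40 and -2.24 after testosterone. The groups overlapped in both fractions.

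Prdx2, the peroxide scavenger, had a mean processed Sup signal of 25750 ± 2298 (SD, n = 5) in the control group against 18919 ± 5066 (SD, n = 5) in the testosterone group. Its mean IP signal was 6122 ± 1291 (SD, n = 5) against 5243 ± 1482 (SD, n = 5). Its scaled Sup levels were 4.01, 4.11, 4.02, 3.84 and 3.85 in control replicates 1 to 5 and 4.08, 3.85, 3.67, 3.45 and 3.84 in testosterone replicates 1 to 5. Testosterone replicates 3 and 4 lay below every control and testosterone replicate 1 lay near the top of the control range. In IP the levels were 1.99, 1.25, 2.10, 2.02 and 1.88 in controls and 2.13, 2.00, 1.94, 1.72 and 1.77 after testosterone. Control replicate 2 was the lowest of all 10 arrays in IP and the highest of all in Sup.

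Gsta4, the transferase for lipid aldehydes, had a mean processed Sup signal of 3395 ± 476 (SD, n = 5) in the control group against 2843 ± 661 (SD, n = 5) in the testosterone group. Its mean IP signal was 916 ± 132 (SD, n = 5) against 743 ± 281 (SD, n = 5). These unscaled signals of all 3 genes include the second scan of testosterone replicates 4 and 5. Prdx2 and Gsta4 were lowest there in both fractions. For Duox1 the median Sup signal was 172 there against 175 in the first scan, and the median IP signal 218 against 269. Scaled, the Sup levels of Gsta4 were 1.05, 1.27, 1.11, 0.97 and 0.76 in control replicates 1 to 5 and 1.29, 0.99, 1.07, 0.98 and 0.95 in testosterone replicates 1 to 5. Of the 5 testosterone arrays, 4 lay inside the control range and 1 just above it. Its IP levels were -0.92, -0.81, -0.65, -0.84 and -1.15 in controls and -0.59, -0.93, -0.64, -1.27 and -1.31 after testosterone. Testosterone replicates 4 and 5 were the lowest of all 10 arrays in IP but not in Sup.

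**Figure D1:**
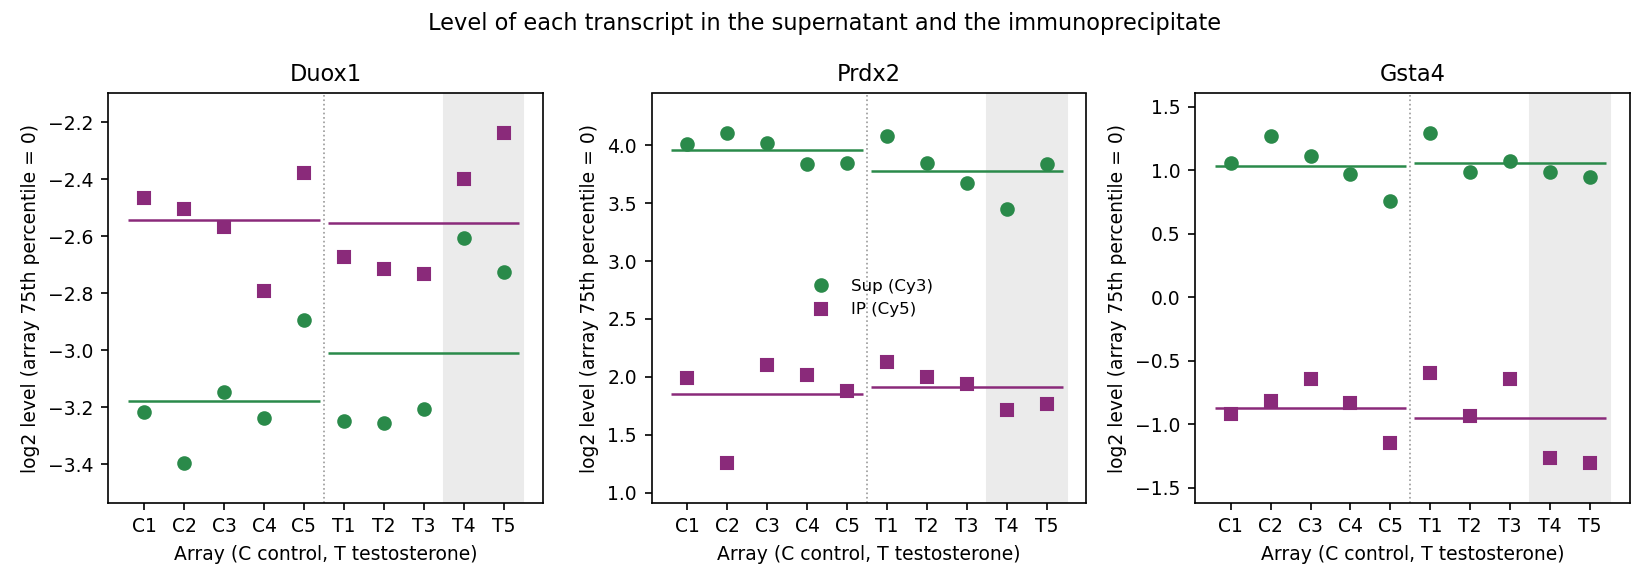
Log2 level of Duox1, Prdx2 and Gsta4 on each array, with the 75th percentile of that channel and array at 0. Circles are Sup, squares IP, lines the group means, and the grey band marks testosterone replicates 4 and 5 of the second scan. Prdx2 and Gsta4 have Sup above IP on every array and Duox1 has IP above Sup.

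The first question was in which fraction each transcript was the more abundant relative to other probes of the same array. It was asked with the IP/Sup ratio, log2 of Cy5 over Cy3 signal minus the array median, so 0 is the median mouse probe. Duox1 had ratios of 0.74, 0.91, 0.67, 0.46 and 0.53 in control replicates 1 to 5 and 0.68, 0.53, 0.57, 0.18 and 0.41 in testosterone replicates 1 to 5. Its mean was 0.57 ± 0.072 (SE, n = 10), or 1.48-fold toward IP, with a 95% interval of 1.33-fold to 1.65-fold. The ratio was above 0 on 10 of 10 arrays, with an adjusted p of 4.68e-06 in limma, but under the 2-fold size required for a call. A small p was common for this ratio, with 35169 of the 41424 tested probes at an unadjusted limma p under 0.05. Of the tested probes, 61.3% had a ratio at least as far from 0 as Duox1.

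The Prdx2 ratio was -2.03, -2.83, -1.82, -1.80 and -1.96 in control replicates 1 to 5 and -1.84, -1.86, -1.63, -1.77 and -2.15 in testosterone replicates 1 to 5. It averaged -1.97 ± 0.099 (SE, n = 10), or 3.92-fold toward Sup (limma adjusted p = 2.26e-10). Apart from control replicate 2, every array lay between -2.15 and -1.63. The Gsta4 ratio was -1.99, -2.06, -1.67, -1.79 and -1.90 in controls and -1.78, -1.93, -1.62, -2.28 and -2.33 after testosterone. Its mean of -1.94 ± 0.082 (SE, n = 10) was 3.82-fold toward Sup (limma adjusted p = 4.00e-11). The 2 lowest values were those of testosterone replicates 4 and 5. An exact two-sided sign-flip permutation test over the 10 arrays gave p = 0.00195 for each of the 3 genes, the smallest it can give.

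By the call of an adjusted p under 0.05 and at least a 2-fold ratio, 2 of the 3 genes were on the Sup side and 0 on the IP side, where 40.7% of the 41424 tested probes were called in either direction. On the Sup side 21.2% of probes were called and on the IP side 19.5%. Prdx2 stood at percentile 7.14 and Gsta4 at percentile 7.52 of the ratios of tested probes counted from the Sup end, and Duox1 at percentile 70.7. Of 22 spike-in probes, whose RNA was added in equal amount to both fractions, 1 had a ratio as low as that of Prdx2 or Gsta4, and their ratios ran from -3.52 to 1.40. The ratios of all 3 genes lay inside that range, and the second lowest spike-in ratio was -1.56. Because Cy5 always marked IP, a dye effect on any of the 3 probes and its fraction cannot be told apart.

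The size of the Duox1 ratio depended on the processing. With normexp correction of the uncorrected signals and an offset of 50 it was 0.15 (limma adjusted p = 0.00303). That setting also starts before the detrending and dye normalization of the processed signal, so the steps that lowered the ratio cannot be told apart. Centring on the spike-ins, which shifts all probes of an array alike, gave Duox1 a ratio of 0.83. Over all its alternatives the adjusted p ran from 6.42e-08 to 0.00303. Gsta4 was at -1.55 with normexp and -1.68 with spike-in centring, and Prdx2 at -1.97 and -1.71, so both stayed beyond 2-fold. Single spots lay on the same side. Outlier spots aside, all 92 Prdx2 spots and all 92 Gsta4 spots were below 0, while 91 of 94 Duox1 spots were above 0.

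**Figure D2:**
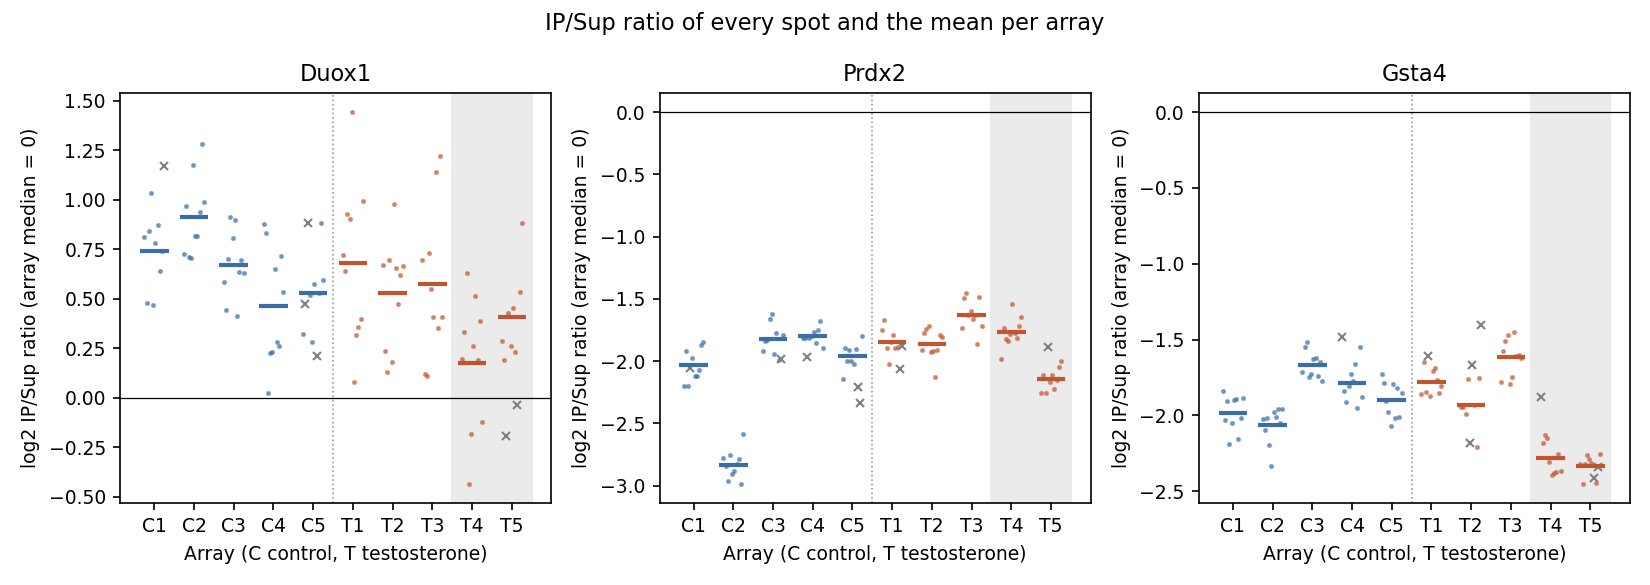
Log2 IP/Sup ratio of every spot (dots, with spots marked as outliers as grey crosses) and the mean per array (bars) for the 3 genes, with the array median at 0. Blue is control, orange testosterone, and the grey band marks the second scan. The spots of control replicate 2 lie together near -2.83 for Prdx2, apart from the other 9 arrays.

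Prdx2 and Gsta4 were each other's nearest neighbour in this ratio. For each gene the other 37 named and tested genes were ordered by the mean absolute difference of their ratios over the 10 arrays. For Prdx2 and Gsta4 this was 0.19. Next for both came Gamt, an enzyme of creatine synthesis, at 0.28 from Prdx2 and 0.26 from Gsta4, and Gsdmd, the pore-forming gasdermin D, at 0.32 and 0.31. Those nearest to Duox1 were Dnajc11, a mitochondrial J-domain protein, at 0.27, the olfactory receptor gene Olfr166 at 0.28 and Trp53rka at 0.33. These are orderings of measured ratios across arrays that share a common dye layout, and no test was made.

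Array by array, the Gsta4 ratio minus the Prdx2 ratio averaged 0.034 ± 0.320 (SD, n = 10), a difference within the spread. It was 0.77 in control replicate 2 and -0.52 in testosterone replicate 4. On the other 8 arrays it stayed between -0.19 and 0.15, with a mean of 0.011 ± 0.101 (SD, n = 8). These 2 arrays were set aside after their values were seen.

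The 10 spots per probe separate the error of single spots from the spread between arrays. Within an array the SD of the log2 ratio over spots had a median of 0.12 for Prdx2, 0.12 for Gsta4 and 0.25 for Duox1. The mean of an array's spots thus had a median standard error of 0.038 for Prdx2, 0.038 for Gsta4 and 0.083 for Duox1. Between arrays of a group the pooled SD was 0.33 for Prdx2, 0.25 for Gsta4 and 0.19 for Duox1, which is 8.76, 6.58 and 2.23 times the spot standard error. For Prdx2 this rests on control replicate 2: without that array the pooled SD was 0.16 for Prdx2, 0.25 for Gsta4 and 0.17 for Duox1. The ratio to the spot standard error was then 4.24 for Prdx2, 6.80 for Gsta4 and 1.95 for Duox1. With or without that array, the ratio was lowest for Duox1, the dimmest of the 3 against its background. Spots are technical repeats and were never counted as replicates. Of 100 spots per gene, 8 for Prdx2, 8 for Gsta4 and 6 for Duox1 were marked as outliers and left out.

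**Figure D3:**
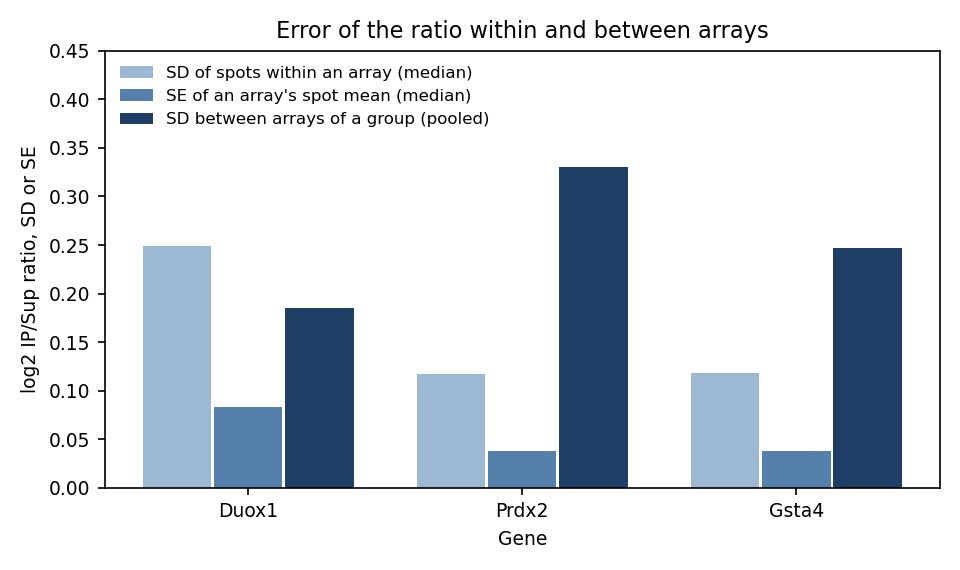
Error of the log2 IP/Sup ratio of each gene. Bars give the median SD of spots within an array, the median standard error of an array's spot mean, and the pooled SD between the 5 arrays of a group, which is 0.19 for Duox1, 0.33 for Prdx2 (0.16 without control replicate 2) and 0.25 for Gsta4.

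The second question was whether prenatal testosterone was followed by a different IP/Sup ratio of these transcripts in the adult testis. For Duox1 the control group averaged 0.66 ± 0.178 (SD, n = 5) and the testosterone group 0.47 ± 0.192 (SD, n = 5). The difference of -0.19 ± 0.143 (SE) did not pass (limma adjusted p = 0.809, exact two-sided permutation p = 0.159), and its 95% interval ran from 0.71-fold to 1.09-fold. Testosterone replicates 4 and 5 lay below all controls and the other 3 lay inside the control range.

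For Prdx2 the control group averaged -2.09 ± 0.427 (SD, n = 5) and the testosterone group -1.85 ± 0.191 (SD, n = 5). They differed by 0.24 ± 0.197 (SE), which did not pass (limma adjusted p = 0.818, exact two-sided permutation p = 0.317). Its interval, 0.88-fold to 1.59-fold, includes the spread from control replicate 2. Without that array the difference was 0.053, with an interval on the log2 scale of -0.25 to 0.35. Within scan 1 it was 0.31 with control replicate 2 and 0.12 without it. For Gsta4 the averages were -1.88 ± 0.157 (SD, n = 5) and -1.99 ± 0.312 (SD, n = 5). They differed by -0.11 ± 0.165 (SE), which did not pass either (limma adjusted p = 0.888, exact two-sided permutation p = 0.5), with an interval from 0.72-fold to 1.19-fold. With testosterone replicates 4 and 5 left aside, so within scan 1, the Gsta4 difference was 0.10, of the opposite sign, and that of Duox1 was -0.069. The share of tested probes called for this difference with limma was 0%, with 2504 of 41424 (6.04%) at an unadjusted p under 0.05. None of the 3 genes was among those.

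The third question was whether the amount of each transcript differed, taken first as abundance, log2 of the sum of both scaled channels. Duox1 went from -1.82 ± 0.141 (SD, n = 5) to -1.76 ± 0.257 (SD, n = 5), a difference of 0.062 ± 0.127 (SE; limma adjusted p = 0.796, exact two-sided permutation p = 0.683). The 2 highest of all 10 scaled values were those of testosterone replicates 4 and 5, whose unscaled Sup signals lay inside the range of the first scan. On the first scan alone the Duox1 difference was -0.13. Prdx2 went from 4.27 ± 0.080 (SD, n = 5) to 4.13 ± 0.214 (SD, n = 5), a difference of -0.14 ± 0.107 (SE; limma adjusted p = 0.472, exact two-sided permutation p = 0.214), which was -0.047 on the first scan. Gsta4 went from 1.37 ± 0.180 (SD, n = 5) to 1.38 ± 0.170 (SD, n = 5), a difference of 0.0051 ± 0.113 (SE; limma adjusted p = 0.983, exact two-sided permutation p = 0.976). Its interval, 0.85-fold to 1.19-fold, is centred near no change, and within scan 1 the difference was 0.099. In abundance 3 of 47646 tested probes (0.0063%) passed, and none of them was Duox1, Prdx2 or Gsta4. At an unadjusted p under 0.05 the share was 15.7%.

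The same comparison was made in each fraction. Prdx2 differed by -0.18 ± 0.128 (SE) in Sup (limma adjusted p = 0.504, exact two-sided permutation p = 0.175), with 4 of 5 testosterone arrays below the control mean and an interval from 0.72-fold to 1.07-fold. Duox1 differed by 0.17 ± 0.159 (SE) in Sup (limma adjusted p = 0.599, exact two-sided permutation p = 0.310), with an interval from 0.89-fold to 1.43-fold. It was at -0.059 on the first scan, and 3 of 5 testosterone arrays lay below the control mean in spite of the positive sign. Gsta4 differed by 0.024 ± 0.121 (SE) in Sup (limma adjusted p = 0.929). With quantile normalization the Prdx2 difference in Sup was -0.37, with a 95% interval of -0.70 to -0.040 (limma adjusted p = 0.485). In abundance that setting gave -0.30, with an interval of -0.58 to -0.026 (limma adjusted p = 0.323). Within scan 1 the Sup differences were -0.095 for Prdx2 and 0.085 for Gsta4. In this fraction 0% of 44692 probes passed with limma, and 5002 (11.2%) had an unadjusted p under 0.05.

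In IP the differences were 0.063 ± 0.160 (SE) for Prdx2 (limma adjusted p = 0.863), -0.076 ± 0.160 (SE) for Gsta4 (limma adjusted p = 0.832) and -0.011 ± 0.125 (SE) for Duox1 (limma adjusted p = 0.973). The Prdx2 difference was -0.085 without control replicate 2, and within scan 1 the differences were 0.18 for Prdx2 (0.028 without control replicate 2), 0.15 for Gsta4 and -0.17 for Duox1. Of 44383 probes, 1 (0.00225%) passed in IP, and it was not one of these genes. The share at an unadjusted p under 0.05 was 13.8%. Across ratio, abundance and both fractions, 12 comparisons were made for the 3 genes. In all 12 the groups overlapped, and 0 had a limma p under 0.05 before adjustment. Over 288 values from other settings 7 did, all with slide as a block, within the second slide or with quantile normalization, and 0 passed after adjustment. For comparison, groups did not overlap at 0.9% of probes for the ratio, 3.73% for abundance, 3.16% for IP and 2.33% for Sup.

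**Figure D4:**
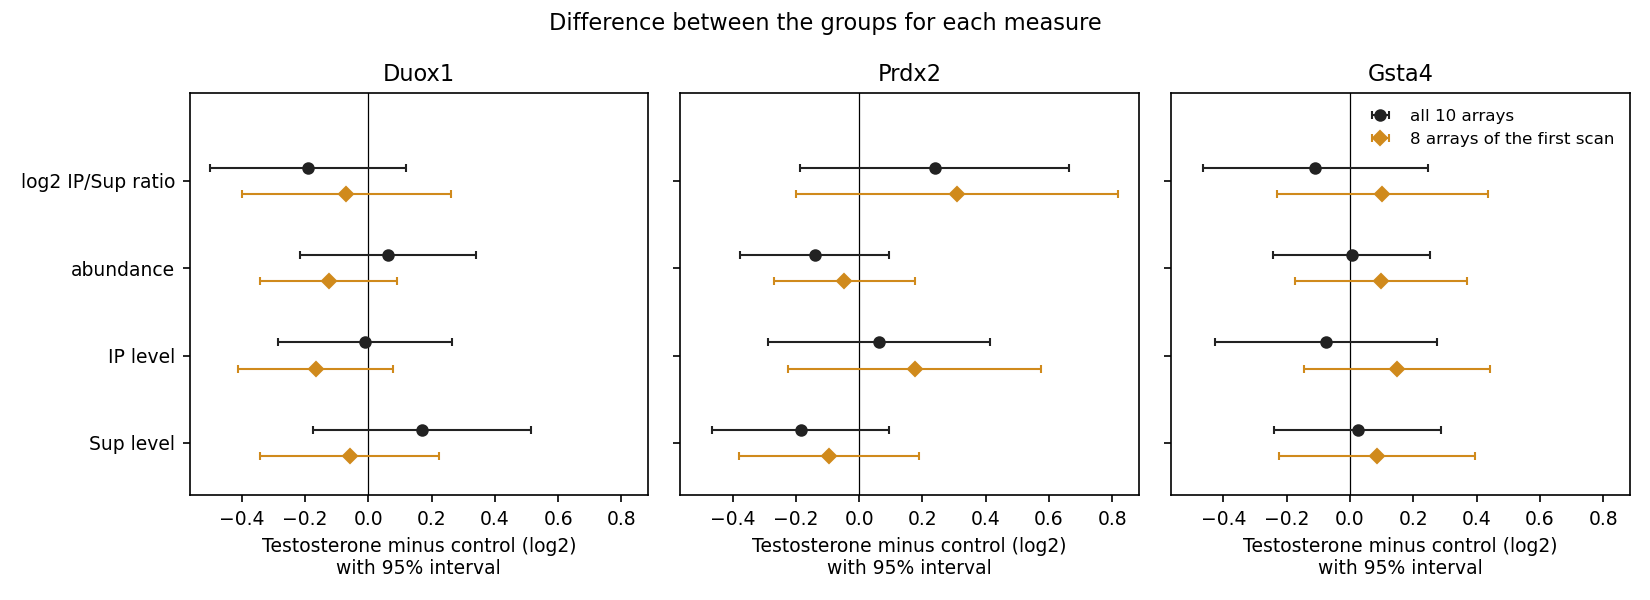
Testosterone minus control on the log2 scale with its 95% interval from limma, for ratio, abundance, IP level and Sup level of each gene. Black circles use all 10 arrays and orange diamonds the 8 arrays of the first scan. Every interval includes 0.

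Within the slide that held both groups, 1 control array faced 3 testosterone arrays. There the Gsta4 differences were 0.36 in Sup, 0.42 in IP and 0.38 in abundance, and control replicate 5 was the lowest control for Gsta4 in both fractions. For Duox1 they were -0.34 in Sup, -0.33 in IP and -0.34 in abundance, and control replicate 5 was the highest control for Duox1 in both. With a single control array, its own deviation and a group difference cannot be told apart. 

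Other redox genes could not be set beside these 3. Of 74 further genes of peroxide, glutathione, thioredoxin and NADPH oxidase metabolism, among them the dual oxidase maturation factors and the catalase and superoxide dismutase genes, 0 carried a name on a probe used here. The same held for the markers of Leydig, Sertoli, myoid, spermatogonial, macrophage, endothelial and blood cells. The only named marker was Spats1, a spermatogenesis-associated gene, 1 of 11 for spermatocytes and spermatids, with both fractions well above background on each of 10 arrays. Whether the makeup of cell types differed between the samples was therefore not tested, also for Prdx2, which red blood cells are known to hold in large amounts.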

How the data were processed

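Each deposited spot intensity came from Agilent Feature Extraction (11.0.1.1 in the submitters' processing notes). Processed intensity is background subtracted, spatially detrended and dye normalized within each array, per the file headers. Median spot and background intensity are deposited without correction, and the other deposited columns used are flags of 0 or 1. Per the labels, Sup carried Cy3 and IP Cy5.

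Of 62976 spots per array, control, negative control and outlier spots were left out and the spots of a probe averaged as log2. A probe counted as above background where at least 50% of its spots did. Probes had to be well above background on at least 5 of 10 arrays, in both channels for the ratio, in either for abundance, and in the channel itself for a fraction. Groups were compared over all such probes with limma 3.58.1 in R 4.3.3 (lmFit, eBayes, Benjamini-Hochberg, threshold 0.05); exact permutation tests ran over 252 arrangements. Functions were tested on simulated data. Figures were drawn with matplotlib 3.10.9. Where labels give no dam or litter, p-values measure the spread between these samples.

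The genes, lists and alternatives (normexp with offset 50, other filters, scalings and centrings, blocks, each array left out) were chosen with earlier results of these data known. Named genes were the 3 members and, for each, the 3 nearest in ratio. RefSeq names are those of assembly GRCm38.p6. No coordinates are given, since the array design names another build. The authors' value table lacks these 3 probes and was not used.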

Additional observations from a re-analysis of the deposited data

Results flagged for a closer look

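In 24 checks of 5 arrays (3 genes, 4 measures and 2 groups), the lowest or highest array stood apart from its group in 2, where chance alone picks about 1 group in 20. Ratio and abundance are built from the IP and Sup signals, so the 24 checks are not independent. Both flagged checks concern Prdx2 in control replicate 2 and draw on the same IP signal, so they are not separate deviations. Its log2 IP/Sup ratio was -2.83, against -2.03 for the next lowest control and -1.80 for the highest. Its IP level was 1.25, against 1.88 for the next lowest and 2.10 for the highest. On the same array the Sup level of Prdx2 was 4.11, the highest of the controls, and its 10 spots had a ratio SD of 0.12, where the 10 arrays ran from 0.063 to 0.14. Gsta4 on that array had a ratio of -2.06 against -1.99 for control replicate 1, the next lowest control.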

How the results depend on the processing

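The log2 IP/Sup ratios of Prdx2, Gsta4 and Duox1 kept their direction and their side of the threshold in all 54 values from alternative settings. Of 288 values for the group differences, 0 passed limma's test (lowest adjusted p 0.301) and 236 kept their sign. The other 52 had the opposite sign, and the cause was not tested. Before adjustment, 7 of the 288 values had a p under 0.05 in limma, 3 of them with the opposite sign; their 95% intervals leave out 0. With slide as a block these were Gsta4 abundance (0.38, interval 0.025 to 0.72), Gsta4 in IP (0.42, 0.024 to 0.83) and Duox1 abundance (-0.34, -0.62 to -0.048). Within the second slide they were Duox1 abundance (-0.34, -0.61 to -0.062) and Duox1 in IP (-0.33, -0.66 to -0.00020), both resting on 1 control array. With quantile normalization they were Prdx2 abundance (-0.30, -0.58 to -0.026) and Prdx2 in Sup (-0.37, -0.70 to -0.040). The authors' value table could not serve as an alternative because it lacks the probes.

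Over all probes, 16851 were called for the IP/Sup ratio (8079 toward IP, 8772 toward Sup), against 10335 with normexp. Centring on the spike-ins moved the split to 10296 toward IP and 6666 toward Sup and the median ratio from -0.045 to 0.21. Spike-in scaling moved the median IP difference of all probes from -0.031 to -0.19. Over all settings, calls for the group difference ran from 0 to 4 in abundance, 0 to 3 in IP and 0 to 2 in Sup, and were 0 for the ratio throughout.

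Within the first scan, and with scan as a block, which rests on the same arrays, the difference was 0.10 for the Gsta4 ratio, 0.15 for Gsta4 in IP, -0.13 for Duox1 abundance and -0.059 for Duox1 in Sup. Without control replicate 2 as well, a setting chosen after seeing the data, these were 0.057, 0.16, -0.14 and -0.11, while the Prdx2 difference went from 0.31 to 0.12 in ratio and from 0.18 to 0.028 in IP. On the slide with both groups (1 control array), or equally with a slide block, the values were 0.12 for the Gsta4 ratio, 0.066 for the Duox1 ratio, 0.047 for Prdx2 abundance, 0.020 for Prdx2 in Sup, 0.42 for Gsta4 in IP, -0.34 for Duox1 abundance and -0.34 for Duox1 in Sup. Spike-in scaling gave -0.051 for Gsta4 abundance, -0.058 for Duox1 abundance and -0.10 for Prdx2 in IP. Quantile normalization gave -0.014 for Gsta4 abundance, -0.0046 for Prdx2 in IP, 0.057 for Duox1 in IP and -0.0044 for Gsta4 in Sup. With normexp, Gsta4 in IP was 0.0034 and Duox1 in IP 0.073, and with the median over spots Duox1 in IP was 0.016.

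With 1 array left out at a time, the differences ran from -0.064 to 0.055 for Gsta4 abundance, -0.013 to 0.11 for Duox1 abundance, -0.085 to 0.13 for Prdx2 in IP, -0.16 to 0.013 for Gsta4 in IP, -0.089 to 0.035 for Duox1 in IP and -0.045 to 0.082 for Gsta4 in Sup. The Prdx2 ratio difference ran from 0.053 to 0.31, lowest without control replicate 2.

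Samples sharing a replicate number did not deviate together in every pair (correlations across probes from -0.030 to 0.041 for the ratio, -0.051 to 0.21 for abundance, -0.024 to 0.17 in IP and -0.19 to 0.18 in Sup). These correlations cannot decide whether the numbers pair the samples, since dam and litter are not given and the slide differs within every pair. With the replicate block the differences in ratio were 0.24 for Prdx2, -0.11 for Gsta4 and -0.19 for Duox1. Under that block 0 of 39337 probes passed for the ratio and 1 of 45555 for abundance, and no call for the 3 genes changed.

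Spot signal over background was lowest at 2.28 for Duox1 in IP, and its spots varied most within an array (median SD of the ratio 0.25). Across arrays, however, its mean ratio had the smallest standard error, 0.072 against 0.099 for Prdx2 and 0.082 for Gsta4. The number of arrays, 5 a group, limits the precision of every group difference.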
